A study of Mus musculus with 19 samples.

Results

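Ribosomal protein genes encode the proteins that, with ribosomal RNA, form the large (60S) and small (40S) subunits of the cytoplasmic ribosome. Members were taken by gene symbol: Rpl or Rps followed by a number with at most a short letter or digit suffix, plus Rpsa, Rplp0, Rplp1, Rplp2 and Fau. The rule found 81 of the 14443 genes with deposited counts. It used symbols alone, but only genes in the deposited count table could be members. The lowest mean count of a gene in that table was 20.1. Rpl24 and Rpl36al have FPKM but no counts there, so they are not members. Of these, 45 belong to the 60S subunit, 32 to the 40S subunit and 4 are paralogs (Rpl22l1, Rpl7l1, Rps27l and Rps4l). Rack1, a 40S protein gene, has counts but another symbol, so it is not a member.

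The study measured poly(A) RNA from mouse locus coeruleus, a small noradrenergic nucleus of the brainstem that promotes waking, in 19 libraries. CnB1KO_SD6 (n = 5) and CnB1KO_S6 (n = 5) came from ABC-CnB1KO mice, labelled as knockouts of CnB1, which is the regulatory chain of calcineurin, a phosphatase switched on by calcium. WT_SD6 (n = 5) and WT_S6 (n = 4) came from ABC-Ctrl mice. SD6 marks 6 h of sleep deprivation and S6 normal sleep, and tissue was taken 4 weeks after injection of an AAV that carries Cre under the neuronal hSyn promoter, a treatment the protocol gives for both genotypes. The tissue was cut out of 200 µm frozen sections, so the libraries hold glia and vessels in which this promoter is not expected to be active, and the series compares sleep deprivation in each genotype and genotype in each sleep state. The labels name no strain, age, sex, day or litter. In such tissue fewer cells of a type and less RNA per cell cannot be told apart.

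Ribosomal protein mRNAs are among the most abundant mRNAs of most cells, and most of their products are present once in each ribosome. Many of these mRNAs start with a C followed by a run of pyrimidines, the 5′ terminal oligopyrimidine (TOP) motif, through which the kinase complex mTORC1 raises their translation without a need for more mRNA. RNA levels of the kind measured here therefore do not show how much of these mRNAs was translated.

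The bases around the annotated start of the transcript are shown for 7 members because the TOP motif sits at the start. Each line gives 30 bases before and 20 from the annotated start in RefSeq (GRCm38.p6), 5′ to 3′, with capitals marking the C at the start and the pyrimidines that follow without a break. Rps15a and Rpl7l1 are shown because results below turn on them, Rps10 because it had the lowest mean count, and Rpl15, Fau, Rps6 and Rpl38 because they carry long runs.
Rps15a (chr7:118116128-118116177, minus strand): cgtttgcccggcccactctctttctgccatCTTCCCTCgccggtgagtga
Rpl7l1 (chr17:46782637-46782686, minus strand): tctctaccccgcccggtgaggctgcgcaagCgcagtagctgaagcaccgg
Rps10 (chr17:27635225-27635274, minus strand): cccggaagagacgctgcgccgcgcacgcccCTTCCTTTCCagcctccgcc
Rpl15 (chr14:18270967-18271016, minus strand): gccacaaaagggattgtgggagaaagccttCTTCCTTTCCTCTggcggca
Fau (chr19:6057917-6057966, plus strand): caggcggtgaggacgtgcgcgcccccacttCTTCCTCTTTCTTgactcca
Rps6 (chr4:86857348-86857397, minus strand): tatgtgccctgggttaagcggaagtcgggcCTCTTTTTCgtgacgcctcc
Rpl38 (chr11:114668550-114668599, plus strand): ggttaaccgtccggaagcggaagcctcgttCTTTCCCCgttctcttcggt
The run is 8 bases in Rps15a, 13 in Rpl15 and Fau, and 1 in Rpl7l1. RefSeq promoters were matched for 60 of the 81 members, with 71 entries in all. A C at the annotated start with a run of 5 or more pyrimidines stood in 14 of the 71 entries (19.7%), against 2.50% of all 32841 entries. Whether the annotated starts are those used in this tissue was not tested. A run of 8 or more pyrimidines within 20 bases of the start was found in 45.1% of member entries and 16.05% of all. The letters CCGGAAG occurred on either strand, anywhere from 250 bases before to 50 after the start, in 36.6% of member entries and 8.86% of all.

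Library totals were 5110285 to 6966490 in CnB1KO_SD6, 3887298 to 7128244 in CnB1KO_S6, 5606129 to 7903253 in WT_SD6 and 6260061 to 7002015 in WT_S6. The lowest total belonged to library 13, labelled CnB1KO_S6, and the highest to library 10, labelled WT_SD6. Ppp3r1, the gene of CnB1, had 120 to 152 TMM-scaled CPM (counts scaled to a common library size by edgeR) in CnB1KO libraries and 136 to 165 in WT libraries. Averaged over both sleep states it was lower in CnB1KO by a log2 change of -0.26 (adjusted p = 0.00758, edgeR), with library 13 the highest CnB1KO library. All 7 noradrenergic markers were detected, with summed levels of 968 to 1616 CPM in CnB1KO and 641 to 1542 CPM in WT libraries. The summed level of 6 cerebellar granule cell markers was 126 to 947 CPM in CnB1KO and 167 to 1333 CPM in WT libraries.

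All 81 members had a level in every library. FPKM, the authors' value per transcript length, averaged 14.9 for the lowest member, Rps20, and 115 for the highest, Rpl3, whose protein lies next to the peptidyl transferase centre. The median member had 60.2 FPKM, and 76 of the 81 were within a factor of 2 of it. Rpl19, Rpl41 and Rps6 followed Rpl3, while Rps27l, Rpl7l1 and Rps15a stood just above Rps20. Members of the 60S subunit had a median of 62.8 FPKM and those of the 40S subunit 59.4 FPKM, while the 4 paralogs had 23.6 FPKM. The median member ranked at percentile 95.9 among 17362 symbols with a mean of 1 FPKM or more.

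**Figure D1:**
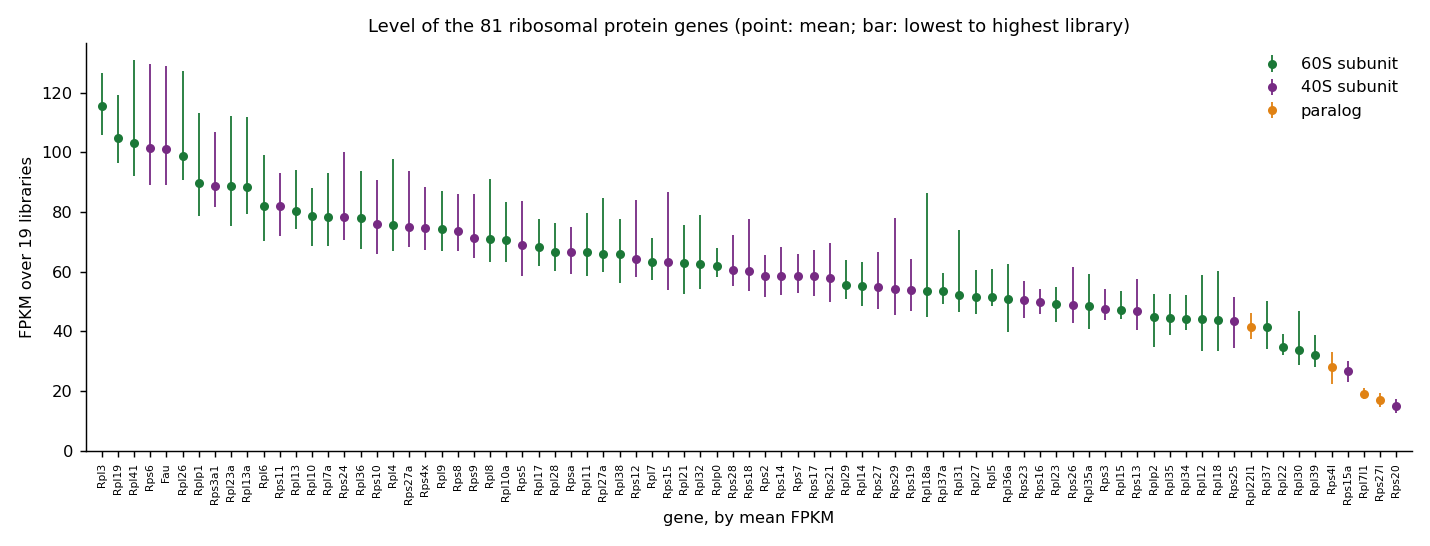
Mean FPKM of each of the 81 genes over 19 libraries (points), with bars from the lowest to the highest library and colours for the subunit. Most genes lie near the median of 60.2 FPKM, and the paralogs sit at the low end.

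Paralogs did not all stand below their partners. Rpl22l1, which can take the place of Rpl22 in the 60S subunit, averaged 41.6 FPKM, against 34.8 FPKM for Rpl22. Rpl7l1 averaged 19.1 FPKM, and Rps27l averaged 16.8 FPKM. Rps4l is annotated as a transcribed processed pseudogene. Of the canonical ribosomal proteins, Rpl24 has no counts and had 55.5 to 86.1 FPKM. The tables also list 322 symbols of ribosomal protein pseudogenes, whose FPKM summed to 25.8% to 40.9% of the members' sum, so reads of near-identical copies could have been split between them.

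Counts and FPKM gave different orders for some members. Rps15a had the highest mean count, 989, at 26.7 FPKM and with 6270 bp of annotated exon. Rps10 had a mean count of 20.1, the lowest of all 14443 genes, at 75.8 FPKM. Rpl23a had a mean count of 22.6 at 88.6 FPKM. Exons of 21 members overlap those of another gene, 3 on the same strand (Rps10, Rpl13a and Rpl19) and 19 on the opposite strand, including Rpl23a, which overlaps Tlcd1. The protocol names no step that keeps the strand, so counts of these members are uncertain. Small nucleolar RNA genes lie inside 30 members, 59 in all, and those members had a median of 63.5 FPKM, against 58.6 FPKM for the other 51.

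The level of the whole group followed the depth of the library. For each member, log2 count was regressed on log2 depth, and the slope had a median of 0.58, where 1 means in proportion to depth, and 78 of 81 were below 1. Over all 14443 genes the median slope was 1.14. Among other genes with FPKM in the middle range of the members (n = 754) it was 0.74. Among other genes with counts per kb of annotated exon in the members' middle range (n = 3153) it was 1.02. FPKM carried the same dependence: its slope was below 0 for 75 members with a median of -0.28, equal to that of those 754 genes at the precision shown. Rps29 had the lowest count slope, 0.24, and Rps10, Rps27l and Rpl7l1 had slopes of 1.32, 1.19 and 1.09. Across the 81 genes the slope went with exon length at a Spearman rho of 0.33 and with mean FPKM at -0.38, as a description of genes that share the same 19 libraries.

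**Figure D2:**
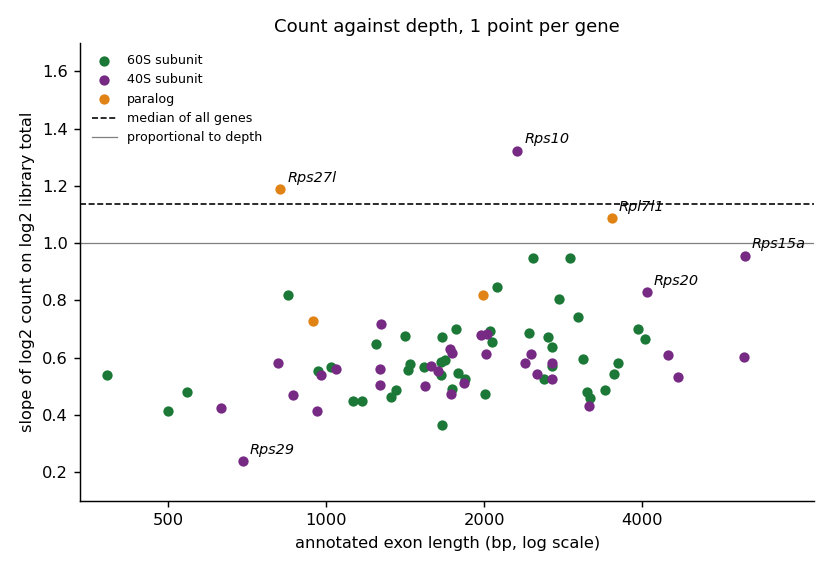
Slope of log2 count against log2 depth for each of the 81 genes against annotated exon length (log scale), with the median of all genes dashed at 1.14. Rps10, Rps27l and Rpl7l1 are the 3 genes above 1, and Rps29 is lowest at 0.24.

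The mean log2 CPM of the 81 genes was 5.26 ± 0.0832 in CnB1KO_SD6, 5.24 ± 0.176 in CnB1KO_S6, 5.16 ± 0.0932 in WT_SD6 and 5.18 ± 0.0342 in WT_S6 (SD, n = 5, 5, 5 and 4). In library 13, the shallowest, 78 members were above their own median and 72 had their highest level of all. In library 10, the deepest, 2 members were above their median and 44 had their lowest level. Libraries 19 and 20 (CnB1KO_SD6) each had 77 members above, library 18 (CnB1KO_SD6) had 70 and library 9 (WT_SD6) had 76. The share of all counts held by the members ran from 0.320% to 0.420%. The medians that follow, and the members with the largest genotype changes, are therefore also given with the log2 library total as a covariate.

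**Figure D3:**
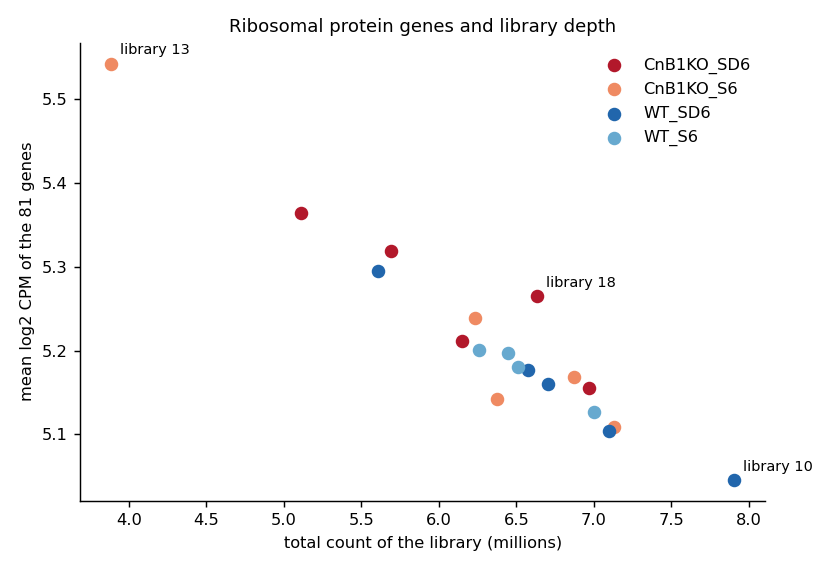
Mean log2 CPM of the 81 genes in each library against its total count, coloured by group. Deeper libraries have lower means, with library 13 at 5.54 and library 10 at 5.05 at the ends.

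Sleep deprivation left no member past the threshold in either genotype. In CnB1KO mice 0 of 81 members passed at an adjusted p under 0.05 in edgeR, while 0.692% of all genes did. At an unadjusted p under 0.05 there was 1 member, Rpl13a, while 1400 of all 14443 genes had one. DESeq2, limma voom and limma on FPKM also called 0 members, with 1.11%, 0.644% and 0.403% of their genes or symbols called. The members' median log2 change was 0.02, against -0.01 for all genes, with 56 of 81 positive. In WT mice 0 of 81 passed, while 1.14% of all genes did. There 1 member, Rps20, had an unadjusted p under 0.05, while 1673 of all 14443 genes had one. The same 3 tools called 0 members in WT, with 1.56%, 1.13% and 0.328% called in all. The WT median was -0.02, against 0.0010 for all genes, with 24 of 81 positive. With depth as a covariate the medians were 0.03 in CnB1KO and -0.00022 in WT. Averaged over both genotypes 0 of 81 passed, while 4.69% of all genes did. An unadjusted p under 0.05 was found for 2 members and for 2482 of all 14443 genes. DESeq2 (4.78% of all genes) and limma voom (4.73%) called 0 members. The averaged median was -0.0027 with 37 of 81 positive, and it was above 0 with library totals in place of TMM and in limma voom. It was 0.01 with 54 positive under the depth covariate, 0.02 with 55 positive in FPKM, and 0.03 with 73 positive without libraries 13 and 18.

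Without libraries 13 and 18, the number of positive members under deprivation in CnB1KO was 79 of 81 and the median was 0.10, with 0 called (0.318% of all genes) and 10 at an unadjusted p under 0.05, while 1326 of all 14443 genes had one. Those libraries were chosen after the data were seen, because the members stood high in them for their depth or group. The CnB1KO median thus depended on library 13, and leaving out each library in turn gave -0.02 to 0.10.

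Rpl13a, a 60S protein that in human monocytes can also leave the ribosome to silence inflammatory mRNAs, had the highest log2 change under deprivation in CnB1KO. It had 15.5, 15.8, 17.5, 15.5 and 18.7 CPM in CnB1KO_SD6, against 14.6, 10.9, 15.8, 14.4 and 11.9 CPM in CnB1KO_S6. The groups overlapped through library 13 of CnB1KO_S6 at 15.8 CPM. The log2 change was 0.30 ± 0.10 (SE), with an adjusted p of 0.246 in edgeR. Rps20, a 40S protein, had a negative log2 change under deprivation in WT. It had 48.0, 42.4, 40.7, 48.4 and 44.6 CPM in WT_SD6, against 52.0, 50.9, 45.1 and 49.8 CPM in WT_S6. These overlapped as well, and the log2 change of -0.14 ± 0.07 (SE) had an adjusted p of 0.424. In CnB1KO the log2 change of Rps20 was negative too, at -0.05 with an adjusted p of 0.949 in edgeR.

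Between genotypes the members' medians were above 0 without a depth covariate, and Rps15a was the 1 member that passed in edgeR. After deprivation 0 of 81 members passed between CnB1KO and WT in edgeR, while 0.132% of all genes did. Members with an unadjusted p under 0.05 numbered 5, of which 4 were higher in CnB1KO, while 2197 of all 14443 genes had one. In FPKM 21 members did, while 2267 of 17362 symbols did. The median was 0.11, against 0.01 for all genes, with 78 of 81 positive, including all 45 of the 60S subunit. After sleep 0 of 81 passed, while 0.0485% of all genes did. At an unadjusted p under 0.05 there were 2 members, both lower in CnB1KO (Rps15a and Rpl7l1), while 1456 of all 14443 genes had one. The median there was 0.06, against 0.01 for all genes, with 73 of 81 positive. DESeq2, limma voom and limma on FPKM also called 0 members, with 0.658%, 0.0969% and 0.0461% called in all after deprivation and 0.09%, 0.0277% and 0.0518% after sleep. Averaged over sleep states 1 of 81 passed, while 3.09% of all genes did, and the median was 0.09, with 77 of 81 positive.

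Depth moved with these values. With the log2 library total as a covariate the median after deprivation was 0.03 with 67 of 81 positive, and after sleep it was 0.0010 with 41 of 81 positive. Averaged over sleep states it was 0.01 with 56 of 81 positive. In FPKM without the covariate the average median was 0.07, and with it 0.04. After deprivation the FPKM median was 0.10 with 76 of 81 positive, and with the covariate 0.06 with 70 positive. After sleep it was 0.05 with 66 positive, and with the covariate 0.01 with 48 positive. Without libraries 13 and 18 the median after sleep was -0.01 with 33 of 81 positive, while after deprivation it remained 0.11. Leaving out library 13 alone gave the lowest of the leave-one-out medians after sleep, -0.02. Members of the 60S and 40S subunits had average medians of 0.09 and 0.09 without the covariate.

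**Figure D4:**
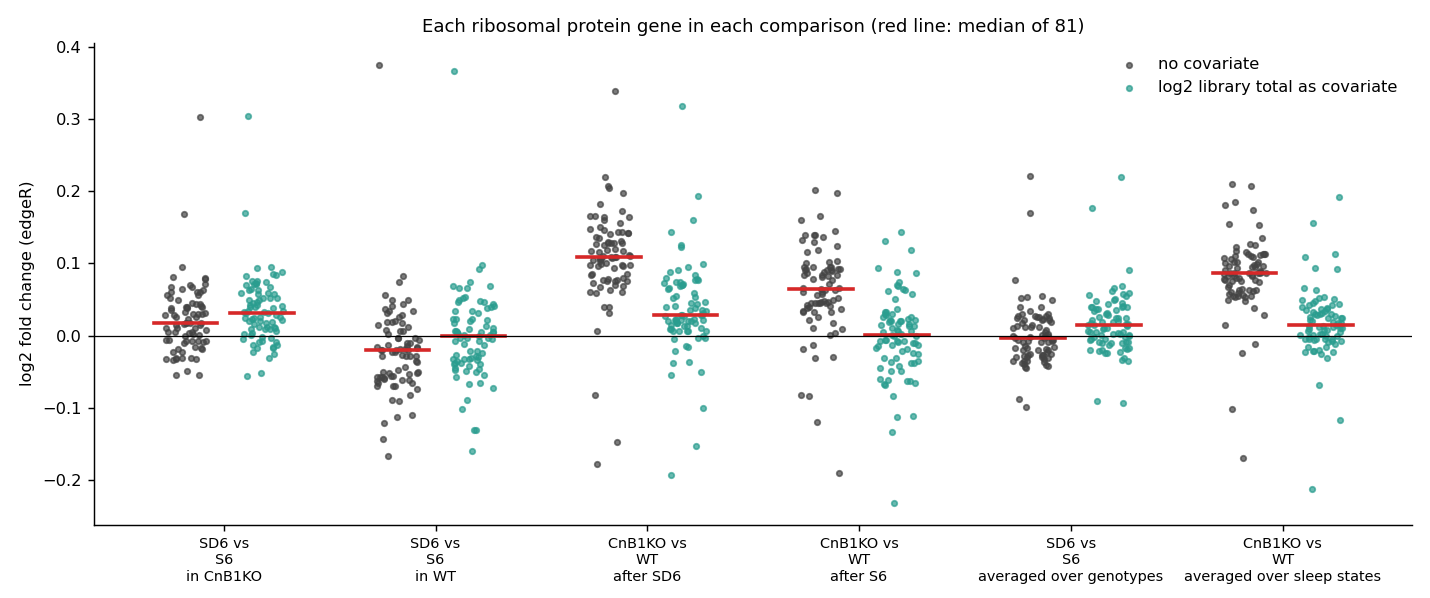
Log2 fold change of each of the 81 genes in 6 comparisons from edgeR, without (grey) and with (green) the log2 library total as covariate, with the median as a red line. The genotype medians of 0.11 and 0.06 without the covariate are 0.03 and 0.0010 with it.

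Markers of other cells also differed by genotype. Averaged over sleep states, edgeR called 1.88% of all genes higher in CnB1KO and 1.21% lower. All 4 endothelial markers were higher in CnB1KO averaged over sleep states (Cldn5 by 0.36, Flt1 by 0.36, Pecam1 by 0.29 and Slco1a4 by 0.22 on the log2 scale, each under an adjusted p of 0.05 in edgeR), with summed levels of 361 to 473 CPM in CnB1KO and 298 to 365 CPM in WT libraries. The calls of Pecam1 and Slco1a4 were lost without any 1 of libraries 2, 4, 7, 9, 12, 15, 17, 18 and 19, for Slco1a4 also 3 and 13 (adjusted p up to 0.0835 and 0.0859), and in limma on FPKM, and over all alternatives their adjusted p reached 0.157 and 0.127. Of the 8 oligodendrocyte markers 1 was higher (Mag), and of the 6 microglia markers 1 was higher (C1qa), at adjusted p-values of 0.0444 and 0.0392 that 13 left-out libraries each brought past 0.05. All 8 oligodendrocyte markers had positive changes (median 0.17), as did all 7 noradrenergic markers (median 0.13, none called), all 6 microglia markers (median 0.07) and all 4 blood markers (median 0.24, none called). The 6 cerebellar granule cell markers were all negative (median -0.74, none called). Signs were mixed for astrocyte markers (4 of 6 positive, median 0.05) and pan-neuronal markers (3 of 4 positive, median 0.02), with none called. With the mean of the cerebellar granule cell markers as a covariate, the genotype average had a members' median of 0.06, and Rps15a was the 1 member called (1.65% of all genes). With deprivation averaged over genotypes, 3 of 8 oligodendrocyte markers (Opalin, Aspa and Mog) and 1 of 6 microglia markers (Cx3cr1) were called lower in edgeR. Of all genes 2.13% were called lower there, and no marker of the other cell types was called. The call of Mog was lost without any 1 of 11 libraries, and that of Cx3cr1 without either of 2. The part of these cells in the members' values was not tested.

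Rps15a, a 40S protein encoded on chr7:118104372-118116188 (minus strand, GRCm38), was the member called between genotypes, and it was lower in CnB1KO. It had 145, 141, 141, 143 and 158 CPM in CnB1KO_SD6 and 142, 138, 169, 145 and 147 CPM in CnB1KO_S6. WT_SD6 libraries had 167, 160.5, 155, 174 and 150.0 CPM, and WT_S6 libraries had 168, 164, 167 and 175 CPM. Every CnB1KO library was below every WT library except libraries 20 and 13, which were the shallowest of their groups. Over all libraries the levels were 147 ± 9.43 CPM in CnB1KO (SD, n = 10) and 165 ± 8.24 CPM in WT (SD, n = 9). The counts of Rps15a were unlike those of most members. Its ratio of mean count to mean FPKM was the highest of the 81. Its annotated exons covered 6270 bp, against a members' median of 1781 bp. Its slope of log2 count on log2 depth was 0.96, against a members' median of 0.58. Which transcripts of the gene gave these counts was not tested.

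The averaged log2 change of Rps15a was -0.17 ± 0.04 (SE), a fold of 0.890, with an adjusted p of 0.0281 in edgeR. It was the 1 member among the 1.21% of genes called lower in that comparison. With the depth covariate it was -0.21 (adjusted p = 0.000453), and without libraries 13 and 18 it was -0.19 (adjusted p = 0.0173), the 1 member called among 1.07% of all genes. FPKM gave a log2 change of -0.16 in limma (adjusted p = 0.0440), with 23.1 to 27.8 FPKM in CnB1KO and 26.1 to 29.96 FPKM in WT. The call was lost without any 1 of WT_S6 libraries 3 and 4, WT_SD6 library 9, CnB1KO_S6 libraries 12 and 15, or CnB1KO_SD6 library 19, where the adjusted p was 0.0505, 0.0820, 0.0522, 0.0584, 0.0552 and 0.0535. It was also lost in FPKM with no filter on low symbols, and over all alternatives the adjusted p ran from 0.000453 to 0.0820.

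Within each sleep state Rps15a did not pass without the covariate. After deprivation its log2 change was -0.15 (adjusted p = 0.230) and after sleep -0.19 (adjusted p = 0.293). With the depth covariate both passed, at -0.19 (adjusted p = 0.0208) after deprivation and -0.23 (adjusted p = 0.0130) after sleep. Rps15a was then the 1 member called in each, where 0.222% and 0.132% of all genes were called. The interaction of Rps15a was 0.04, with a 95% interval of -0.12 to 0.21, and deprivation gave -0.02 in CnB1KO and -0.07 in WT.

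Rpl7l1, an Rpl7 paralog that joins pre-60S particles, was the other member with lower values in CnB1KO in both sleep states. It had 57.2, 52.6, 59.5, 52.6 and 53.6 CPM in CnB1KO_SD6 and 50.4, 51.1, 56.2, 50.2 and 55.2 CPM in CnB1KO_S6. The WT_SD6 libraries had 57.6, 58.2, 58.7, 60.9 and 56.6 CPM, and the WT_S6 libraries had 56.0, 57.4, 56.2 and 58.5 CPM. The genotypes overlapped through libraries 13, 16 and 18. The averaged log2 change was -0.10 ± 0.03 (SE) with an adjusted p of 0.0857 in edgeR, and with the depth covariate it was -0.12 with an adjusted p of 0.0493. That fit called 2 members in the genotype average, Rps15a and Rpl7l1, and 3.95% of all genes. Its partner Rpl7 had an averaged log2 change of 0.07.

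Rpl23a, a 60S protein beside the exit tunnel for the new peptide, gave the clearest separation of genotypes in FPKM. It had 88.2, 91.7, 112, 95.6 and 102 FPKM in CnB1KO_SD6 and 88.2, 94.3, 97.4, 93.3 and 87.4 FPKM in CnB1KO_S6. WT_SD6 libraries had 85.2, 80.0, 86.6, 84.0 and 78.7 FPKM, and WT_S6 libraries had 82.1, 80.3, 75.5 and 80.6 FPKM. Every CnB1KO library was above every WT library, as the 1 member whose genotypes did not overlap, among the 0.0518% of symbols that separated in this direction. In limma on log2(FPKM + 1) the averaged change was 0.22 (adjusted p = 0.0159). Together with Rps15a it made 2 members called there, where 1% of symbols were called. With the depth covariate the change of Rpl23a in FPKM was 0.20 (adjusted p = 0.0217), where Rps15a also passed and 1.41% of symbols were called.

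The counts of Rpl23a were too low to add to this. They ran from 14 to 29 in CnB1KO and from 15 to 28 in WT libraries, or 3.83 ± 0.711 CPM in CnB1KO (SD, n = 10) and 3.27 ± 0.376 CPM in WT (SD, n = 9). The genotypes overlapped, and the averaged log2 change of 0.21 ± 0.12 (SE) had an adjusted p of 0.374 in edgeR. The gene lies on chr11:78180932-78183584 (minus strand), and the part of reads from Tlcd1, on the other strand, in its values was not tested.

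**Figure D5:**
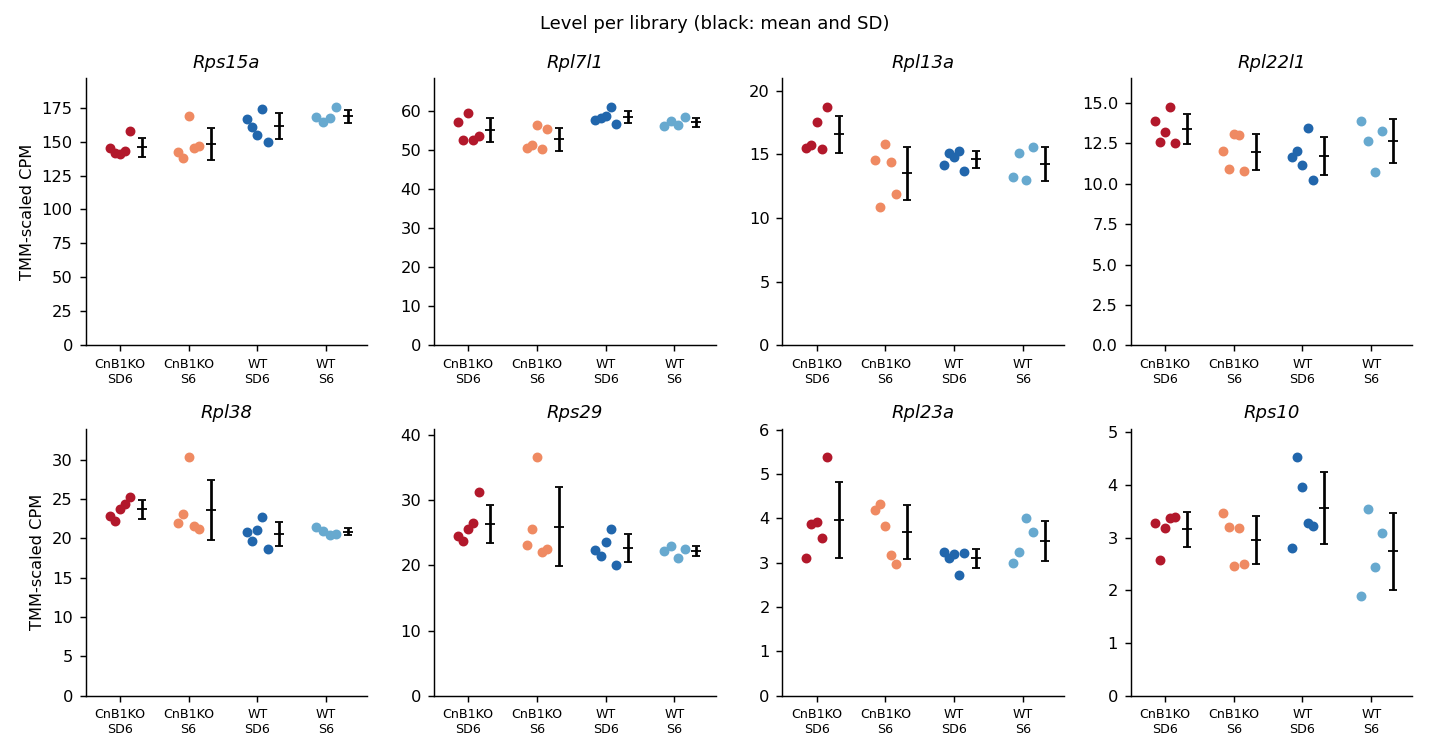
TMM-scaled CPM of 8 genes in each library by group (points), with mean and SD in black; each axis starts at 0. Rps15a lies at 138 to 169 CPM in CnB1KO and 150.0 to 175 CPM in WT, while Rpl38 and Rps29 show library 13 far above the other CnB1KO_S6 libraries.

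Separation of the genotypes was also read within each sleep state. In CPM, Rpl13a was the 1 member whose libraries did not overlap after deprivation, with 15.5 to 18.7 CPM in CnB1KO_SD6 and 13.7 to 15.3 CPM in WT_SD6, where 1.11% of all genes separated in this direction; after sleep no member separated, against 4.32% of all genes. In FPKM after deprivation 4 of 81 members were higher in every CnB1KO library (Rpl23a, Rpl26, Rpl39 and Rps3), against 0.835% of symbols. In FPKM after sleep 3 of 81 were higher (Rpl23a, Rpl35a and Rps10), against 1.85% of symbols, and 2 of 81 were lower (Rpl7l1 and Rps15a), against 1.95%.

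The highest positive changes in the genotype average belonged to Rps29, Rpl23a and Rpl38. Rps29, a small zinc-binding 40S protein, had 24.5, 23.8, 25.6, 26.5 and 31.3 CPM in CnB1KO_SD6 and 23.1, 25.6, 36.6, 21.99 and 22.5 CPM in CnB1KO_S6. In WT_SD6 it had 22.3, 21.5, 23.6, 25.6 and 20.02 CPM, and in WT_S6 22.2, 23.0, 21.2 and 22.5 CPM. Libraries 13 and 20 stood above the rest, and the averaged log2 change of 0.21 ± 0.08 (SE) had an adjusted p of 0.146. With the depth covariate the change of Rps29 was 0.09 (adjusted p = 0.304), and without library 13 it was 0.14 (adjusted p = 0.197). For Rps29 the value of 36.6 CPM in library 13 came with a count of 134, the lowest of all CnB1KO libraries, which had 134 to 177.

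Rpl38, a 60S protein that in mouse embryos affects the translation of Hox mRNAs, had 22.9, 22.2, 23.7, 24.3 and 25.3 CPM in CnB1KO_SD6 and 21.96, 23.1, 30.3, 21.6 and 21.2 CPM in CnB1KO_S6. The WT_SD6 values were 20.8, 19.6, 21.0, 22.7 and 18.7 CPM and the WT_S6 values 21.4, 21.0, 20.5 and 20.5 CPM. The genotypes overlapped in part, at an averaged log2 change of 0.18 ± 0.06 (SE) and an adjusted p of 0.0904. With the depth covariate Rpl38 had 0.11 (adjusted p = 0.234). Rpl36 had a log2 change of 0.18 (adjusted p = 0.109), and 0.11 (adjusted p = 0.175) with the covariate. Rpl29 had 0.17 (adjusted p = 0.135), and 0.09 (adjusted p = 0.337) with the covariate.

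Rps10, a 40S protein that is ubiquitinated when ribosomes collide, showed how far low counts can spread. It had 3.27, 2.58, 3.18, 3.37 and 3.39 CPM in CnB1KO_SD6 and 3.47, 3.20, 2.46, 3.18 and 2.50 CPM in CnB1KO_S6. In WT_SD6 it had 2.81, 4.52, 3.96, 3.27 and 3.21 CPM, and in WT_S6 1.89, 3.55, 2.43 and 3.09 CPM. Deprivation in WT gave a log2 change of 0.38 ± 0.19 (SE), the highest of the 81, with an adjusted p of 0.498, and the groups overlapped.

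The effect of deprivation did not differ between genotypes past the threshold for any member. The interaction (deprivation in CnB1KO minus deprivation in WT) had 0 of 81 members called, while 0% of all genes were. Limma voom and limma on FPKM called 0% too, and DESeq2 called 1 gene (0.00692%), which is not a member. With all libraries and TMM scaling no member had an unadjusted p under 0.05 in edgeR, while 287 genes did. With library totals in place of TMM 1 member and 246 genes did, and without libraries 13 and 18 it was 5 members and 452 genes. The median was 0.04, against -0.01 for all genes, with 63 of 81 positive, with the depth covariate it was 0.03 with 62 positive, and without libraries 13 and 18 it was 0.13 with 78 positive. Rpl22l1 had the highest value, 0.28 ± 0.14 (SE). It had 13.9, 12.6, 13.2, 14.7 and 12.5 CPM in CnB1KO_SD6 and 11.99, 10.9, 13.1, 13.0002 and 10.8 CPM in CnB1KO_S6, with 11.7, 12.01, 11.1, 13.5 and 10.3 CPM in WT_SD6 and 13.9, 12.7, 10.7 and 13.3 CPM in WT_S6. All 4 groups overlapped, and the adjusted p was 0.9999.

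The intervals show what size of change these libraries could hide. For deprivation in CnB1KO the 95% intervals had a median half-width of 0.17 on the log2 scale, and all 81 lay within 1.5-fold in either direction. In WT the half-width was 0.18, and all but Rps10 lay within 1.5-fold. Between genotypes it was 0.17 after deprivation, where all but Rpl23a lay within 1.5-fold, and 0.19 after sleep, where all 81 did.

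Genes that act with the ribosomal proteins were read from lists drawn up with earlier results of these data known. In the control of TOP mRNA translation by mTORC1, 2 of 21 measured genes rose with deprivation averaged over genotypes and none fell, where 2.57% of all genes rose and 2.13% fell. Ddit4, an inhibitor of mTORC1 signalling, had 39.6 to 56.6 CPM in SD6 and 31.9 to 40.7 CPM in S6 libraries (log2 change 0.44, adjusted p = 0.000651, edgeR). Eif4ebp2, which binds the cap-binding protein eIF4E, had 135 to 163 CPM in SD6 and 125 to 136 CPM in S6 libraries (log2 change 0.17, adjusted p = 0.00675). Both calls held without each library in turn. Between genotypes 1 of the 21 was lower in CnB1KO, Sesn2, a leucine-sensing inhibitor of mTORC1 (log2 change -0.30, adjusted p = 0.0349), and the call of Sesn2 was lost without any 1 of libraries 3, 4, 7, 9, 11, 12, 13, 15, 17 and 19, with an adjusted p up to 0.0820.

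In ribosome biogenesis 2 of 36 genes were lower in CnB1KO averaged over sleep states and none was higher, where 1.21% of all genes were called lower and 1.88% higher. Nmd3, the export adaptor of the 60S subunit, averaged 45.2 ± 2.28 CPM in CnB1KO (SD, n = 10) and 54.3 ± 3.66 CPM in WT (SD, n = 9), a log2 change of -0.26 (adjusted p = 0.00476). Nop58, a core protein of box C/D small nucleolar particles, averaged 77.8 ± 5.14 CPM in CnB1KO (SD, n = 10) and 93.2 ± 8.15 CPM in WT (SD, n = 9), a log2 change of -0.27 (adjusted p = 0.00476). Both calls held without each library in turn, but neither passed in FPKM, where the adjusted p reached 0.244 for Nmd3 and 0.141 for Nop58. With deprivation no gene of this list passed in edgeR.

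Of 77 mitochondrial ribosomal protein genes, which serve a separate ribosome, 4 rose with deprivation averaged over genotypes (Mrpl19, Mrpl51, Mrpl35 and Mrpl36) and none fell, against 2.57% and 2.13% of all genes. Mrpl19 had 36.4 to 42.2 CPM in SD6 and 32.7 to 36.8 CPM in S6 libraries, a log2 change of 0.18 (adjusted p = 0.00413). By genotype 1 of 77 was higher in CnB1KO (Mrpl12) and 1 lower (Mrpl50), against 1.88% and 1.21% of all genes, at log2 changes of 0.16 (adjusted p = 0.0357) and -0.15 (adjusted p = 0.0287), but Mrpl12 lost its call without any 1 of 10 libraries (2, 3, 4, 7, 12, 13, 15, 17, 18 and 19; adjusted p up to 0.0868) and Mrpl50 without any 1 of 6 (2, 4, 7, 9, 12 and 17; adjusted p up to 0.0747). Mrpl19 and Mrpl51 did not pass in limma on log2(FPKM + 1). The median of the 77 was 0.03 with deprivation and 0.04 with genotype. None of 10 translation elongation factor genes and none of 15 other TOP mRNA genes passed in any comparison. Without the depth covariate the elongation factors had a genotype median of 0.09, equal to that of the members at this precision. The other TOP genes had -0.0037. With the covariate the members' median was 0.01, and the medians of these lists were not compared.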

How the data were processed

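The authors deposited a table of whole-number counts per gene for all 19 libraries, and a table of FPKM for each of the 4 groups. TPM columns (19) were left aside. Per the submitters' processing notes, the tools included StringTie 2.2.1, HTSeq 2.0.4, SAMtools 1.6, Picard 2.18.29, Trim Galore 0.6.10 and FastQC 0.12.1, and the build was GRCm38. No aligner, annotation or handling of duplicates is named there. Columns carry the group and a running library number, and no batch. The labels call the samples biological replicates.

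Members, lists and alternatives were chosen with earlier results of these data known. Counts were tested with edgeR 4.0.16 in R 4.3.3, as a 2-sided quasi-likelihood test after TMM scaling and filterByExpr. That filter removed none of the 14443 genes, so all 81 members were tested. One model held the 4 groups, leaving 15 residual degrees of freedom. The threshold was an adjusted p (Benjamini-Hochberg, 14443 genes) below 0.05. FPKM was tested with limma 3.58.1 on log2(FPKM + 1) over the 17362 symbols with a mean of 1 or more, a scale that understates changes of low genes. Log2 changes are CnB1KO over WT and SD6 over S6. Alternatives were DESeq2 1.42.0, limma voom, other scalings, filters and pseudocounts, the library total as covariate, and leaving out each library. Fits without libraries 13 and 18, FPKM with the depth covariate and the cerebellar granule marker covariate were chosen after seeing the data. The tests were tried on simulated counts. Gene positions came from the GENCODE annotation of GRCm38.

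The genes named were members that passed, the 3 highest and 3 lowest changes per comparison, the 4 highest and 4 lowest mean FPKM, paralog pairs, Ppp3r1, and up to 4 passing genes of each related list. Rpl35a, Rps3, Fau, Rpl15, Mrpl35 and Mrpl36 were named after their values were seen.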

Additional observations from a re-analysis of the deposited data

Results flagged for a closer look

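Single libraries stood apart from the others of their group in 21 of 196 tests, measured as the gap to the nearest library over the range of the group. The tests covered the TMM-scaled CPM of the named genes and the members' mean log2 CPM. Chance gives about 1 in 20 for independent tests. These tests share libraries, and many genes were named for their changes in the same data, so the number of flags cannot be read against that rate. Of the 21, 13 were the highest value in CnB1KO_S6 library 13, the shallowest library. There the CPM and the gap over the range were 139 and 0.753 for Rpl3, 41.2 and 0.825 for Rpl19, 46.4 and 0.784 for Rpl26, 39.8 and 0.715 for Rpl36a, 30.3 and 0.795 for Rpl38, and 45.9 and 0.760 for Rpl41. They were 46.7 and 0.719 for Rps6, 46.7 and 0.717 for Rps14, 169 and 0.717 for Rps15a, 32.2 and 0.755 for Rps27, 21.3 and 0.718 for Rps28, 36.6 and 0.750 for Rps29, and 152 and 0.806 for Ppp3r1.

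In CnB1KO_SD6, Rps15a was highest in library 20 (158 CPM, gap over range 0.740), and library 17 was lowest for Rplp2 (31.2 CPM, 0.718) and Rps10 (2.58 CPM, 0.751). In CnB1KO_S6, Cldn5 was highest in library 12 (48.9 CPM, 0.726). In WT_SD6, library 8 was highest for Rpl22 (79.3 CPM, 0.915) and Sesn2 (53.5 CPM, 0.717). Library 9 of WT_SD6 was highest for Rpl36a (35.5 CPM, 0.729) and lowest for Rpl23a (2.73 CPM, 0.728). The cause of these values was not tested.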

How the results depend on the processing

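Member calls moved only between genotypes: with the library total as covariate 1 passed after deprivation, 1 after sleep and 2 in the average, FPKM gave 2 in the average (pseudocount 1 or 0.1, or with the depth covariate), and leaving out each library gave 0 to 1. Members changed sign in comparisons where they had not passed, some of them among the furthest from 0, and the cause was not tested. In edgeR with all libraries the log2 change was 0.27 for Rpl13a in the interaction, -0.18 for Rps10 after deprivation, -0.17 for Rpl23a under deprivation in WT and -0.08 for Rpl13a after sleep, and it lay between -0.06 and 0.09 for the others. The log2 changes in FPKM are given for pseudocount 1 (the same with no filter), pseudocount 0.1 and the depth covariate. Between genotypes Rpl13a after sleep had 0.10, 0.10 and 0.034, Rps10 after deprivation 0.043, 0.044 and 0.062, and Rps10 in the average 0.11, 0.11 and 0.13. Under deprivation Rpl18 in WT had -0.10, -0.11 and -0.078, Rpl23a in WT 0.057, 0.058 and 0.063, Rpl41 in CnB1KO 0.013, 0.013 and 0.016, and Rps12 over both genotypes 0.023, 0.024 and 0.038. The interaction was -0.0051, -0.0051 and -0.012 for Rpl13a and 0.026, 0.027 and 0.021 for Rplp2. Rps15a under deprivation in CnB1KO had 0.00063 with the depth covariate in FPKM. Without libraries 13 and 18 values were 0.051 for Rpl41 and 0.038 for Rps15a under deprivation in CnB1KO, and 0.0015 for Rplp2 and 0.0016 for Rps14 in the interaction. Rps10 in the genotype average had 0.018 with the cerebellar covariate.

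Leaving out each library gave, under deprivation in CnB1KO, -0.026 to 0.17 for Rpl23a, -0.092 to 0.055 for Rpl41 and -0.052 to 0.025 for Rps15a. It gave -0.093 to 0.049 for Rps10 in the genotype average, and in the interaction -0.092 to 0.0097 for Rps14 and -0.11 to 0.0026 for Rplp2. No paired analysis was possible because the columns carry a running library number and no replicate number. Mean counts near 20.1 and 22.6 limit the precision for Rps10 and Rpl23a.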
